A study of Mus musculus with 18 samples.

Results

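Transcript assembly of mouse gonadal adipose tissue left 1488 loci that carry a strand but no gene name, among 30867 assembled loci in all. A locus was taken as a member when every transcript model of it lacked a gene name and at least 1 model lay on the + or - strand, and no measured value entered that choice. The assembly held 23815 named loci and 5564 unnamed loci without a strand besides. RNA was taken from male C57BL/6 offspring aged 3 weeks, whose dams had received bisphenol A (BPA) in corn oil by gavage at 5 mg/kg daily, from day 1 to day 20 after conception, or the corn oil alone. The labels list 3 BPA and 3 vehicle adipose samples and say that vehicle offspring came from 3 litters and BPA offspring from 4, without the litter of each sample. The 6 adipose expression columns are headed adipose03, adipose10, adipose15, adipose25, adipose41 and adipose42, and those numbers occur in no label. The columns were therefore described side by side as adipose tissue, and BPA was not compared with vehicle. Values are fragments per kilobase of transcript, scaled to sequencing output (FPKM), summed over the models of a locus, and the depth behind them is unknown.

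Loci without a name can be genes that an older annotation lacked, RNA read from the strand opposite to a gene, or copies of genes. A processed pseudogene is a copy of a spliced messenger RNA that was inserted back into the genome, usually without a promoter of its own, and it can be nearly identical to its source gene. Genes for ribosomal proteins and translation factors have left many such copies in mammals. Long noncoding RNAs are spliced transcripts without a long reading frame, and many start beside or opposite to a coding gene. The library protocol in the labels names no step that marks the strand, and the strandedness of the libraries is not given in the sources used here. Unless strand was kept, reads from overlapping genes on opposite strands cannot be told apart.

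The sequences below show how close copies are to their source genes over the opening 90 coding bases in GENCODE transcripts, with each pseudogene base that differs from the source gene in capitals. The comparison was made without a gap for 65 of the 90 loci of at least 1 FPKM in the median that were matched to a source gene. Copies whose 90 bases did not align in 1 stretch were left out, so the counts lean to intact copies. A copy with a compared locus on each strand, like Rpl3-ps1, counts 2 times. Of the 65 loci, 37 had no difference. Tpt1-ps3, the highest of the 65, is such a copy, and its printed bases are also those of Tpt1. The other 2 copies are shown because they differ, as did 28 of the 65, by at most 5 bases. Gm6170 is a copy of Eef1a1, the elongation factor that brings aminoacyl-tRNA to the ribosome, and differed at 3 of 90 bases. Rpl3-ps1 is a copy of Rpl3, a protein of the large ribosomal subunit, and differed at 1 of 90.
Tpt1-ps3: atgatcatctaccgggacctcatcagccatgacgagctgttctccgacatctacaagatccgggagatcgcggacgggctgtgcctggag
Eef1a1: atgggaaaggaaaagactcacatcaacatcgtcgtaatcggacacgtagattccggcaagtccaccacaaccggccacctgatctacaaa
Gm6170: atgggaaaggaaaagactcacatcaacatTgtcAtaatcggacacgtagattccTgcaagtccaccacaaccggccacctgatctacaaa
Rpl3: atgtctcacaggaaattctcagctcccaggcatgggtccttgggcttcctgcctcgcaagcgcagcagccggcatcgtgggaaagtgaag
Rpl3-ps1: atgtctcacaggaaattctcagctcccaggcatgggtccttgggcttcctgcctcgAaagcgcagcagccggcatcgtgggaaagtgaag

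The next sequences are RefSeq promoter windows (GRCm38, 250 bases before to 50 after a start) at 3 loci whose start lay within 20 bases of a RefSeq start on their strand, with each CpG dinucleotide in capitals. They are shown because these starts were of unlike composition. D730003I15Rik, a long noncoding RNA gene, is at chr1:191224204-191224503 on the + strand, and its window held 28 CpG at 57.7% GC. Gm4737 is at chr16:46155028-46155327 on the - strand, with 4 CpG at 36.7% GC. Gm4988 is at chrX:61287944-61288243 on the + strand, with 3 CpG at 49.7% GC.
D730003I15Rik: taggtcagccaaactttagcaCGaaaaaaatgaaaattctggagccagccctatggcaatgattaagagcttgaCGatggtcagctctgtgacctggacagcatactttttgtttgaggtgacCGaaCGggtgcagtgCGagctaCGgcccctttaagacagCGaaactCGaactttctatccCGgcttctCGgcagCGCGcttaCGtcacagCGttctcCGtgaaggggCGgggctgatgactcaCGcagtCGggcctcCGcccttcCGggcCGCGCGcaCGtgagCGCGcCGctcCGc
Gm4737: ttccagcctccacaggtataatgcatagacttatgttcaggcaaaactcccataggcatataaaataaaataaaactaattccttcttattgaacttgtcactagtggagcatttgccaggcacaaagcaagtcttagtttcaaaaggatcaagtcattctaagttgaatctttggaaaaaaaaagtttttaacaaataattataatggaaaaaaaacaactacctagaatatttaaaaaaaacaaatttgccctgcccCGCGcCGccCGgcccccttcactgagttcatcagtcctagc
Gm4988: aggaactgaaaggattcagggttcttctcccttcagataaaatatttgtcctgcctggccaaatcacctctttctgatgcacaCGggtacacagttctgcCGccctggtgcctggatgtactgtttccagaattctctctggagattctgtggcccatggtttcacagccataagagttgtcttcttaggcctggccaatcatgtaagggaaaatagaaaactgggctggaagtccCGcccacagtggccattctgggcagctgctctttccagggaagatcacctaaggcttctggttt

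Most of the 1488 loci were short and low. Their median width was 1824 bases (quartiles 766 and 5418), against 15186 for named loci and 416 for unnamed loci without a strand. A total of 1312 loci (88.2%) had 1 model. The median over loci of the median FPKM was 0.169, against 0.319 for named loci. A median of at least 1 FPKM was reached by 183 loci (12.3%, 95% Wilson interval 10.7 to 14.1), by 42.6% of named loci and by 6.56% of unnamed loci without a strand. In every column, at least 1 FPKM was reached by 105 loci (7.06%). Above 0 in all 6 columns were 525 loci (35.3%), and 61 were listed at 0 throughout.

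The loci held 2.39% to 3.20% of the summed FPKM of a column (mean 2.90% ± 0.293, SD, n = 6 columns). A mitochondrial locus made up much of that sum, and with mitochondrial loci left out on both sides the share was 1.39% to 2.38%. That remainder was 2.30% in adipose03 and 2.38% in adipose41, and 1.39% to 1.67% in the other 4 columns. The number of loci above 0 was 1117 in adipose03 and 1071 in adipose41, against 801 to 978 in the others. Over the 183 loci at 1 FPKM or more, the highest column was adipose03 for 75 (41%), as it was for 32.1% of named loci at that level.

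Most adipocyte marker genes were abundant in every column. The 8 genes of that list, led by Fabp4 and Car3, summed to 5999 FPKM in adipose03 and to between 9054 and 14951 in the other 5. Lep, the leptin gene, was the exception, at 0 in adipose03, adipose15 and adipose25 and at no more than 2.96 elsewhere. All 10 genes of an epididymis list were in the table, and their sum was 4584 FPKM in adipose03, 998 in adipose10 and 3502 in adipose41. In adipose15, adipose25 and adipose42 it was 0.513, 0.266 and 0. The epididymis lies against the gonadal fat pad, and the list holds secreted proteins of its duct such as Crisp1, Lcn5 and Gpx5. Mesothelium markers (6 of 6 in the table) summed to 76.6 in adipose03 and 68.3 in adipose41, against 15.2 to 26.1 elsewhere, and endothelium markers (4 of 4) to 63.8 and 49.1 against 154 to 218. Testis germ cell genes (5 of 5) summed to between 1.41 and 7.23. Dazl of the testis list, Ttn of the skeletal muscle list and Tie1 of the endothelium list were at 0 throughout. Smooth muscle (4 of 4) gave 65.0 to 290, skeletal muscle (6 of 6) 2.06 to 19.1, erythroid genes (5 of 5) 643 to 2393 and macrophage genes (3 of 4) 9.84 to 35.9. The highest macrophage sum, in adipose03, includes Csf1r at 18.6, a gene listed at 0 in the other 5 columns. For bulk tissue, fewer cells of a type and less RNA per cell cannot be told apart.

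Against GENCODE M21, which is on the same build, 763 loci (51.3%, interval 48.7 to 53.8) overlapped an exon on their own strand by at least 1 base. That share was 15.6% when exons had to cover at least 50% of the locus, and 6.25% against the spans of named models of the adipose table, so the counts by gene rest on partial overlaps too. A further 202 (13.6%) overlapped an exon on the opposite strand only, 39 lay in an intron on the same strand and 41 in an intron on the opposite one. There were 58 loci within 5 kb downstream of a gene on their strand, 91 that started within 1 kb of the start of an opposite-strand gene, and 294 (19.8%) in none of these places. By the gene with the longest exon overlap on the strand given, 285 were at long noncoding genes, 241 at protein-coding genes, 118 at processed pseudogenes and 61 at other pseudogenes on the same strand. On the opposite strand, 94 were at protein-coding genes and 58 at processed pseudogenes.

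Among kinds of more than 10 loci, those at processed pseudogenes were the highest. Their median was 0.755 FPKM on the pseudogene's strand (n = 118) and 2.71 on the opposite strand (n = 58), against 0.205 at long noncoding genes, 0.0702 at same-strand protein-coding genes and 0.145 where no exon was annotated (n = 523). At least 1 FPKM was reached by 56 of 118 (47.5%, interval 38.7 to 56.4) and by 35 of 58 (60.3%, interval 47.5 to 71.9), but by 16 of 523 without an exon (3.06%, interval 1.89 to 4.91). Of the 183 loci at 1 FPKM or more, 91 were at a processed pseudogene (49.7%, interval 42.6 to 56.9), against 85 of the 1305 lower loci (6.51%, interval 5.30 to 7.98). Among the 50 highest loci 40 were at processed pseudogenes, 22 of them on the pseudogene's strand and 18 opposite to it.

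**Figure D1:**
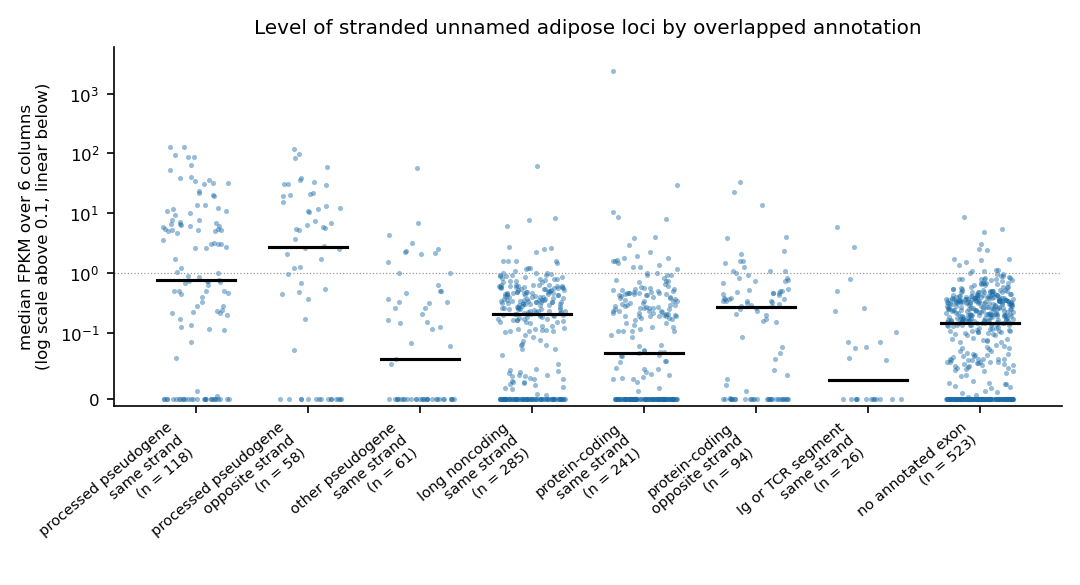
Each point is 1 locus, its height the median FPKM over the 6 columns on an axis that is logarithmic above 0.1, and the bar is the median of its kind. The 8 kinds of more than 10 loci that the text describes are drawn. Processed pseudogenes stand highest, at 0.755 and 2.71 FPKM, and the dotted line marks 1 FPKM.

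The 10 loci of highest median were, apart from a mitochondrial and a small nuclear RNA locus, all at processed pseudogenes. XLOC_022973 (chr6:99877608-99878420, - strand) covers Tpt1-ps3, a copy of the gene for translationally controlled tumour protein, and ranged from 94.5 to 159 FPKM with a median of 130. XLOC_007464 (chr13:111593262-111593646, - strand) covers Gm10736 and ranged from 48.3 to 242, with a median of 128. Adipose03 and adipose41 were highest for both. XLOC_015492 (chr2:75191000-75191856, - strand) covers Rps6-ps4, a copy of a small-subunit ribosomal gene, with 62.1 to 122 and a median of 88.2. XLOC_022813 (chr6:66875074-66875764, - strand) covers Gm9794, with 59.8 to 128 and a median of 86.6. XLOC_029052 (chr9:96895566-96896423, - strand) lies opposite to Gm10123, with 87.9 to 146 and a median of 96.8. XLOC_026948 (chr8:19492906-19493616, - strand) lies opposite to Rpl19-ps11, with 63.4 to 174 and a median of 82.4. These 6 loci were at 48.3 FPKM or more in all 6 columns, and adipose42 was the lowest column for each.

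**Figure D2:**
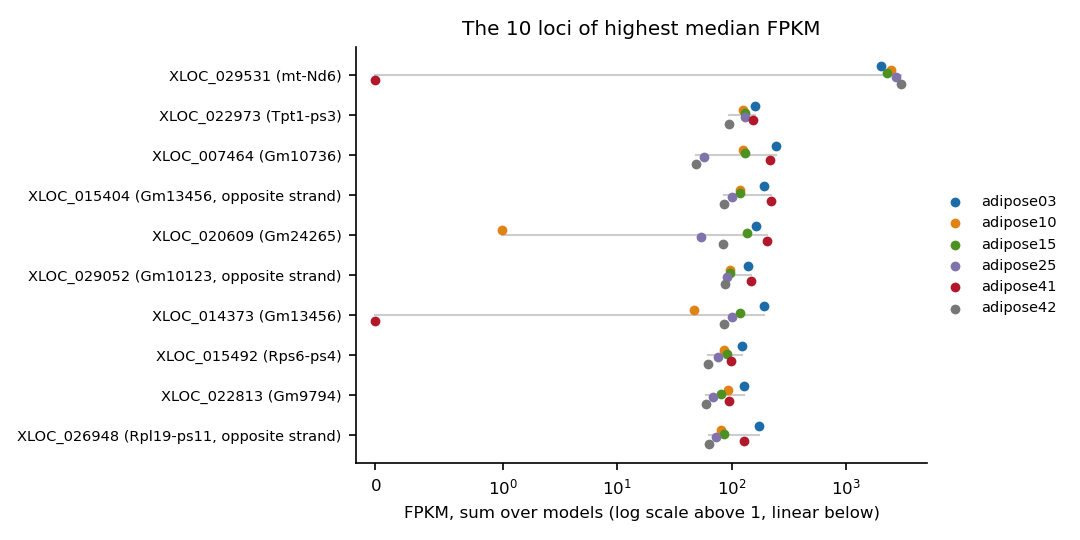
FPKM of the 10 highest loci in each of the 6 columns, on an axis that is logarithmic above 1. Most loci span less than an order of magnitude, while XLOC_029531 and XLOC_014373 are at 0 in adipose41 and XLOC_020609 is at 0.995 in adipose10.

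The named genes beside these copies were at other levels. Tpt1-ps3 lies 151216 bases from Prok2, listed at 0 in the median, and 350145 bases from Rybp, at 3.35 FPKM. Rpl19-ps11 lies 1481 bases from the beta-defensin gene Defb7, at 0 in the median, while the locus opposite to it was at 82.4. Rps6-ps4 is 314252 bases from Mtx2, at 10.7.

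Each processed pseudogene was matched to its closest protein-coding transcript by sequence. A match was found for 163 of 176 loci, to 120 genes, of which Eef1a1 and Rpl3 had 6 loci each and Rpsa 5. Identity over the aligned bases had a median of 98.8% and ranged from 86.4% to 100%. Where the locus was at 1 FPKM or more the median identity was 99.4% (n = 90), and where it was lower 97.8% (n = 73). Ribosomal protein genes were the source of 55 loci, with a median of 7.31 FPKM and 34 at 1 or more. Translation elongation and initiation factors were the source of 8, with a median of 22.6 and 7 at 1 or more, and the other 100 had a median of 0.922 and 49 at 1 or more. Near-identical copies share reads, so the split of FPKM between a copy and its source gene is uncertain.

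The source genes were mostly higher than the copies. A source gene's value was summed over the models that carry its name, so an unnamed model in its locus would not be counted. The values of the copies were summed over all models of a locus. Of 160 loci whose source gene was in the table, 136 had the lower median, and the source genes of loci at 1 FPKM or more had a median of 42.9 FPKM against 9.59 for those loci. Tpt1 ranged from 342 to 728 FPKM with a median of 455, and the Tpt1-ps3 locus stood at 28.6% of that median. Rps6 had a median of 102, and the Rps6-ps4 locus stood at 86.6% of it, with 100% identity over 750 bases. Ppia, which encodes the prolyl isomerase cyclophilin A, had a median of 119, and the locus opposite to its copy Gm10123 stood at 81.3%. Rpl41, of the large ribosomal subunit, had a median of 109 against 128 for the Gm10736 locus, whose shared sequence was 78 bases long.

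Eef1a1 itself went the other way. The models of that name were listed at 707 FPKM in adipose41 and at 0 in the other 5 columns, although every cell uses this factor. The - strand locus at its copy Gm13456, XLOC_015404 (chr2:40555680-40557444), was at 190 in adipose03, 118 in adipose10, 118 in adipose15, 100.2 in adipose25, 218 in adipose41 and 85.6 in adipose42. XLOC_001103 (chr1:128519918-128521478, - strand), at Gm6170, held 85.9, 27.7, 82.7, 62.8, 67.3 and 51.8 in the same order. These 2 loci were at 27.7 FPKM or more in the columns where the source gene was listed at 0. Ube2d3, a ubiquitin-conjugating enzyme gene, and Arl1, a Golgi GTPase gene, were also listed at 0 throughout. The loci opposite to their copies Gm15361 and Gm18541 had medians of 11.6 and 5.66 FPKM. On the strand of Gm18541 itself, XLOC_028198 was above 0 only in adipose25, at 0.226. Gapdh, Hspd1, Hnrnpa3 and Arap2 were listed at 0 throughout too, and the loci at their copies were low. Those loci had medians of 0.136, 0.743, 0 and 0.744 FPKM in that order. In all, 14 loci at 1 FPKM or more were at or above the median of their source gene.

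**Figure D3:**
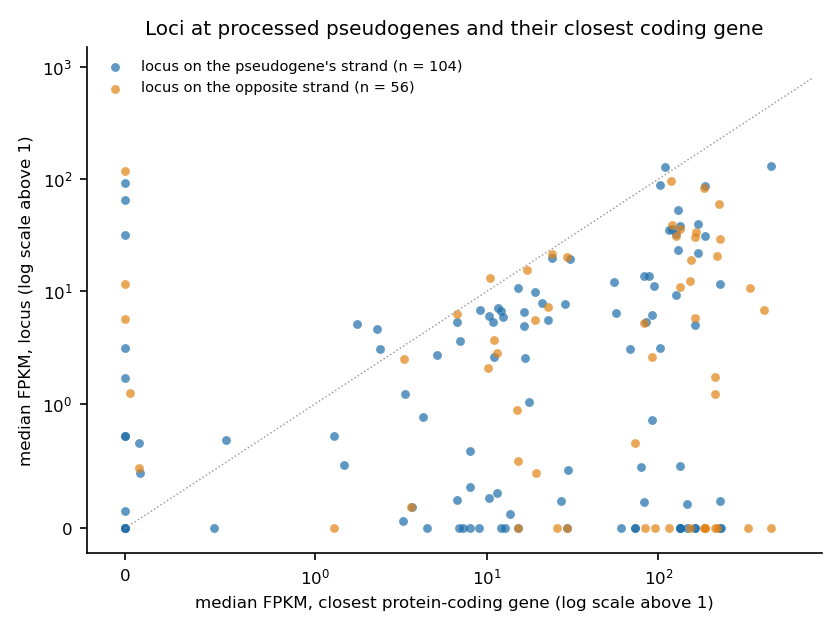
Median FPKM of each locus at a processed pseudogene against that of its closest protein-coding gene, on axes that are logarithmic above 1, with the dotted line marking equal levels. Of 160 loci 136 lie below the line, and the column of points at 0 on the horizontal axis includes the Eef1a1 copies.

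Some of these copies carried a locus on each strand. There were 27 pairs of loci on opposite strands that shared at least 80% of the wider span, 54 loci in all, and 6 pairs had the same start and end. A processed pseudogene lay at 13 of the pairs. Of 162 pairs of values (27 pairs in 6 columns), both strands were above 0 in 81, and 33 of those were equal within 1%. In 80 only 1 strand was above 0, and in 1 neither was. At least 1 such column occurred in 25 of the 27 pairs.

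At Gm13456, the + strand locus XLOC_014373 was at 190 in adipose03, 46.7 in adipose10, 118 in adipose15, 100.2 in adipose25, 0 in adipose41 and 85.6 in adipose42. Set beside the - strand values above, the strands were equal within 1% in 4 columns, and adipose41 had the - strand only. At Rpl3-ps1 (chrX:13202552-13203868), the + strand locus XLOC_029604 held 68.4, 38.8, 38.3, 33.9, 48.7 and 0 in the order of the columns. The - strand locus XLOC_030129 held 0, 38.8, 38.3, 33.9, 48.7 and 30.0. The strands were thus equal in 4 columns, and 1 strand was listed at 0 in adipose03 and the other in adipose42. Rpl38-ps2 (chr6:140746914-140747219) had 29.3 to 63.8 FPKM on the + strand. Its - strand locus XLOC_023200 was at 0 in adipose03 and adipose42 and at 34.3 to 44.5 in the other 4.

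**Figure D4:**
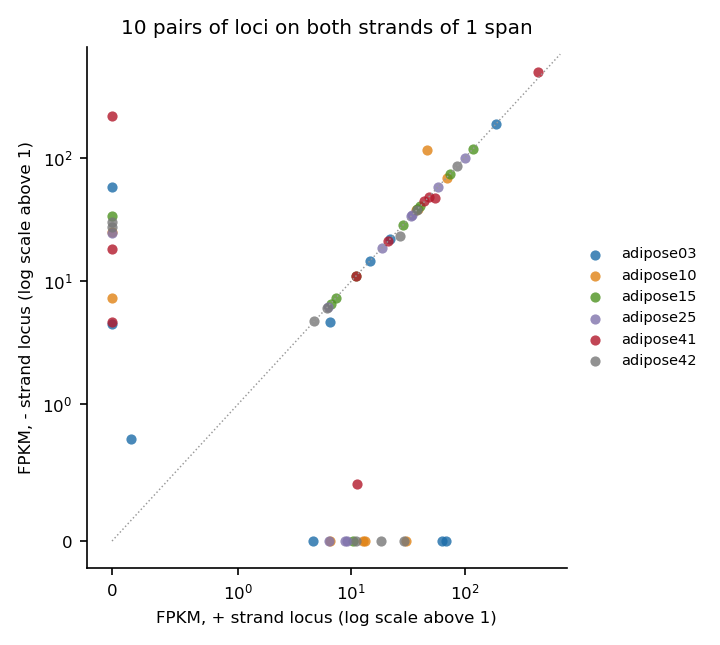
FPKM of the + strand locus against the - strand locus for the 10 pairs of highest + strand median, 1 point for each pair and column, on axes logarithmic above 1. Points lie on the dotted line of equal values or on an axis, with 1 strand at 0, and few lie between.

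Loci that varied most included members of such pairs. Among the 183 loci at 1 FPKM or more, the SD of log2(FPKM + 0.1) between columns had a median of 0.53, against 0.37 for named loci and 0.35 for unnamed loci without a strand under the same threshold. At least 1 column was at 0 for 40 of the 183 (21.9%, interval 16.5 to 28.4), for 5.96% of named loci and for 14.8% of unnamed loci without a strand. Of the 183 loci 27 belonged to a pair, and of the 10 with the largest SD 6 did: XLOC_014373, XLOC_013379, XLOC_023200, XLOC_005942, XLOC_000201 and XLOC_029604. XLOC_013379, opposite to Rpl9-ps6, was at 0 in adipose03, adipose15 and adipose25 and at 30.7, 54.8 and 27.1 in adipose10, adipose41 and adipose42 (log2 SD 4.66). XLOC_005942, opposite to Gm5182, was at 11.1 in adipose15, 11.0 in adipose41 and 27.4 in adipose42 and at 0 in the rest. Gm5182 is a copy of Acaca, the acetyl-CoA carboxylase gene of fatty acid synthesis. XLOC_022900, opposite to Gm10443, was at 26.5 in adipose10, 24.5 in adipose25 and 34.7 in adipose41 and at 0 elsewhere.

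The highest locus of all was mitochondrial. XLOC_029531 covers positions 1095 to 16297 of the mitochondrial chromosome on the - strand, where mt-Nd6, a subunit of respiratory complex I, is encoded. It was at 2002 FPKM in adipose03, 2463 in adipose10, 2255 in adipose15, 2728 in adipose25, 0 in adipose41 and 2970 in adipose42. Apart from adipose41 these were close together, and its log2 SD of 5.96 came from that column. On the + strand, XLOC_029529 over the 16S ribosomal gene mt-Rnr2 had 5.48 to 13.5 FPKM, and XLOC_029530 had 0 to 0.529. The span crosses genes of both strands, so its level is no level of mt-Nd6.

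Small nuclear RNA genes gave another pair of strands and a locus with 1 low column. XLOC_020609 (chr5:115489370-115490561, + strand) holds Gm24265 and lies between Sirt4 and Pxn, 1501 bases from the latter. It was at 161 in adipose03, 0.995 in adipose10, 135 in adipose15, 53.7 in adipose25, 202 in adipose41 and 84.1 in adipose42, with a median of 110. Gm25939 (chr1:72254925-72256015) had a locus on each strand near Pecr, the peroxisomal trans-2-enoyl-CoA reductase gene. XLOC_000201 on the + strand was at 0.154 in adipose03 and 441 in adipose41, and at 38.2 to 74.5 in the other 4 columns. XLOC_000931 on the - strand was at 0.744 and 503 in those columns and had the same 38.2 to 74.5 in the other 4.

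Long noncoding RNA genes had 285 loci on their own strand, 18 of them at 1 FPKM or more (6.32%, interval 4.03 to 9.76). XLOC_006216 (chr12:101968094-101975849, - strand), at Ndufb1-ps, was highest, with 45.2 to 108 FPKM and a median of 60.7. It starts 125 bases from Cpsf2, a cleavage and polyadenylation factor gene on its other side. Gm26735, whose locus XLOC_006669 overlaps an exon of the transcription factor gene Sox4 on the opposite strand, was at 4.41 to 11.2 with a median of 8.28. D730003I15Rik (XLOC_000689) was at 5.86 in adipose03, 2.24 in adipose10 and 3.85 in adipose41, against 0.473, 0.977 and 0.605 in adipose15, adipose25 and adipose42.

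Protein-coding genes had 241 loci on their own strand, of which 21 were at 1 FPKM or more. Their median was 0.0702. Fcor (XLOC_026887, chr8:3671087-3673128, - strand), which encodes a corepressor of Foxo1, was at 3.62 in adipose03, 4.38 in adipose10, 6.74 in adipose15, 11.7 in adipose25, 10.4 in adipose41 and 18.7 in adipose42. Gm4737 (XLOC_010627), whose promoter is printed above, was at 4.32 to 11.3 with a median of 8.07. Pou3f3, a POU-domain transcription factor gene, gave XLOC_000106 at 6.65, 4.22, 0, 1.39, 3.08 and 0. Ppp2r3d gave both XLOC_029236, at 3.01 to 4.90, and XLOC_029235, at 2.26 to 3.56.

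Loci opposite to coding exons numbered 94, of which 15 were at 1 FPKM or more (16.0%, interval 9.92 to 24.7). The class follows the annotated gene type, so it includes XLOC_013379, opposite to Rpl9-ps6, which is annotated as protein-coding. XLOC_023764 (chr7:15946986-15948984, + strand) lay wholly within exon sequence of Ehd2, an ATPase gene of caveolae, the membrane pits that are dense on adipocytes. It was at 7.77, 20.1, 25, 25.4, 9.51 and 27.0 in the order of the columns, and Ehd2 at 28.1, 62.7, 77.4, 62.6, 44.0 and 87.7. Adipose03 and adipose41 were lowest for both, as they were for the endothelium list above, and the part of cell composition in this was not tested. XLOC_014413, opposite to the RNA-binding protein gene Rbms1, was at 11.5 in adipose10 and at 2.66 to 4.25 in the others, while Rbms1 was at 4.24 to 7.72. XLOC_016882, opposite to the interleukin-6 receptor gene Il6ra, was at 0.672 to 5.90 against 5.41 to 21.8 for Il6ra. XLOC_000888, opposite to the BMP receptor gene Bmpr2, was at 0.690 to 3.43 against 1.23 to 10.4. XLOC_004285, opposite to the growth factor receptor gene Egfr, was even, at 1.38 to 1.79 against 8.46 to 11.3. XLOC_030389 was at 1.24 to 1.71, above its host Klhl15, an adaptor gene of ubiquitin ligases, at 0.528 to 1.07.

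Antigen receptor genes gave 26 loci, 16 at variable immunoglobulin segments, 7 at immunoglobulin constant segments and 3 at T cell receptor constant segments. Most were low, with a median of 0.0294 FPKM over the 26 and 2 at 1 FPKM or more. The median was above 0 for 4 of the 16 variable segments, 6 of the 7 constant ones and all 3 of the T cell receptor. The leading loci follow. XLOC_006305 (chr12:113418397-113430483, - strand), at the IgM constant gene Ighm, had 10 models, the most of any of the 1488 loci, and 4.15 to 7.60 FPKM. XLOC_022173, at the kappa constant gene Igkc, was at 1.59 to 3.21, and XLOC_022026, at Trbc2 of the T cell receptor, at 0.291 to 1.37. All 6 columns were above 0 for these 3. Among lymphocyte marker genes, Cd3e, Ms4a1 and Cd4 were listed at 0 in every column, and Cd79a was at no more than 0.464 FPKM.

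A set of loci was above 0 only in columns with epididymis markers. Of 139 loci that reached 5 FPKM in some column, 84 were above 0 in all 6 (60.4%, against 93.7% of 6596 named loci). The next most frequent combination was adipose03, adipose10 and adipose41, with 7 loci (5.04%, against 1.33%, or 88, of named loci). Adipose03 with adipose41 had 4 (2.88%, against 0.728%, or 48, of named loci). These shares count loci above 0 in all 6 columns too, which were 84 of the 139 and 6180 of the named loci. Among loci at 0 in some column, each combination made up a smaller part of the unnamed loci than of the named ones. XLOC_004049 (chr11:102096263-102098086, + strand), in no annotated gene and 1845 bases from the pancreatic polypeptide gene Ppy, was at 353 in adipose03, 0.499 in adipose10 and 148 in adipose41. XLOC_014930 (chr2:152562987-152569614, + strand), at Gm17416 between the beta-defensin genes Defb29 and Defb21, was at 264 in adipose03 and 120 in adipose41. Both were listed at 0 in the remaining columns.

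The other 9 loci of the combinations adipose03 with adipose41, with or without adipose10, were lower and ordered the columns in several ways. XLOC_006228, at Serpina16 of the serpin protease inhibitor family, was at 13.7, 10.2 and 7.65 in adipose03, adipose10 and adipose41. XLOC_009018, at Gm34593, was at 6.28, 16.7 and 9.70, and XLOC_029740, at C230004F18Rik, which is the Gm4988 of the promoter above, at 2.99, 16.5 and 5.47. Adipose10 was highest for those 2 loci. Of the 10 epididymis genes, 6 were highest in adipose03, 3 in adipose41 and 1, Crisp1, in adipose10, where 5 were at 0. The highest columns of XLOC_022704, XLOC_009019 and XLOC_002677, which complete the 7, were 8.38, 6.62 and 5.70 FPKM. Those of XLOC_021553, XLOC_027956 and XLOC_029588, which complete the 4, were 9.13, 8.80 and 7.40. The 10 epididymis genes were each above 1 FPKM in some column, and their part in these results was not tested.

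**Figure D5:**
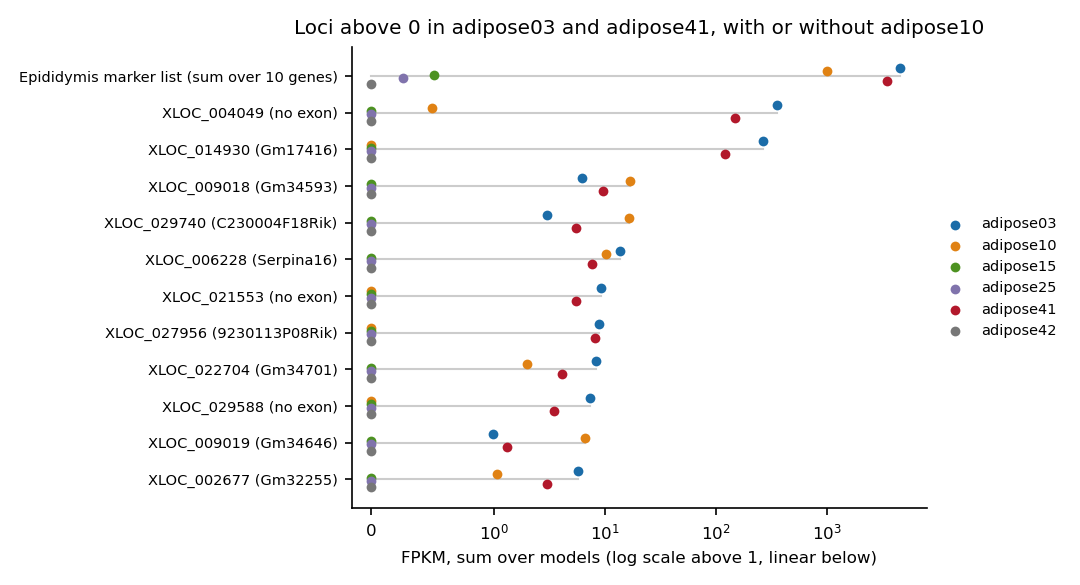
FPKM in each column of the 11 loci above 0 only in adipose03 and adipose41, with or without adipose10, below the summed epididymis markers, on an axis that is logarithmic above 1. Adipose15, adipose25 and adipose42 are at 0 for all 11 loci and at 0 to 0.513 for the marker sum.

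Other loci hardly varied. The smallest log2 SD, 0.069, was that of XLOC_028296 (chr9:81677540-81678677, + strand) at Gm9531, a copy of the histone chaperone gene Set, with 7.41 to 8.44 FPKM. XLOC_013342, at Gm6563, followed at 4.94 to 5.80 (log2 SD 0.083), XLOC_022290, at Ppp1r2-ps2, at 0.954 to 1.15 (0.093), and XLOC_004454, at Gm12251, at 6.68 to 8.74 (0.12). XLOC_021946, in an intron of Zfp800 on the opposite strand, was at 1.47 to 1.85 (0.13). Of these 5, 4 were at processed pseudogenes.

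The 5 loci with most models all had a median above 1 FPKM, while the 5 widest were below it. Ties in model number were broken by median and FPKM was summed over models, so this contrast rests partly on the rule. After Ighm came XLOC_021393, with 9 models at the long noncoding gene AI480526, 59 bases from the histone methyltransferase gene Setd1b, at 0.791 to 2.18 FPKM. XLOC_001209, at A830008E24Rik, and XLOC_026311, at Gm21092, had 8 models each, at 0.856 to 3.56 and at 1.73 to 2.99. The adipose03 value of XLOC_001209 lacks 1 model, whose cell is not a number. XLOC_005974, at Gm6969 and 225 bases from Klf11, had 5 models and 3.93 to 22.9 FPKM. The widest locus, XLOC_014165 at Malrd1, spans 729043 bases and was above 0 only in adipose10, at 1.18, and in adipose41, at 0.528. XLOC_002853 at Cfap54, a gene of motile cilia, was at 0 to 2.31, XLOC_017280 at Naaladl2 at 0 to 0.768, XLOC_017281 at 0.0814 to 0.725 and XLOC_016823 at the cadherin gene Dchs2 at 0 to 0.704.

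No locus without an annotated exon passed 10 FPKM in the median. The highest was XLOC_013429 (chr19:41525124-41527657, + strand), in an intron of Lcor, a ligand-dependent nuclear receptor corepressor gene, at 13.5, 0, 9.35, 7.86, 11.6 and 7.25 in the order of the columns. XLOC_030529 (chrX:150491329-150494851, - strand) lies within the span of a locus named Apex2 and Tmem29 and followed at 1.74 to 10.4, lowest in adipose41 and adipose03. XLOC_009180 (chr15:89766259-89768903, + strand), 13490 bases from Syt10, was even at 4.09 to 6.62. XLOC_026770 (chr8:111309299-111310983, + strand), 817 bases from the necroptosis gene Mlkl, was at 0 in adipose03 and 0.137 in adipose41 and at 3.05 to 4.49 in the others. Among divergent loci the highest was XLOC_012107, 57 bases from the protein kinase C epsilon gene Prkce, at 1.92 to 2.90. None of the 1488 loci overlapped any of 1005 RefSeq miRNA hairpins.

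The starts and ends of some loci fell on annotated ones. A RefSeq start on the same strand lay within 100 bases of 155 loci (10.7% of those on a sequence that has such starts) and within 10 bases of 34. Of those 155 promoter windows, 62 (40%, interval 32.6 to 47.9) had at least 50% GC and an observed to expected CpG ratio of at least 0.6, as did 33.5% of all 32851 RefSeq windows. An end within 50 bases of a GENCODE transcript end, processed pseudogenes aside, was found for 134 loci. The letters AATAAA, the usual polyadenylation signal, read on the transcript strand only, occurred in the last 50 bases of 71 of those transcripts (53.0%, interval 44.6 to 61.2). They occurred in 23.5% of all 30255 noncoding transcripts and in 40.5% of all 58797 protein-coding ones. Both sets were taken by the type of the transcript, whatever the type of its gene. The last 30 bases of 2 of them follow, each at a long noncoding gene, with that signal in capitals, as an example of such ends.
Gm11266: ttcattgtatttcAATAAAgccatgaatat
4732440D04Rik: aacctatAATAAAattaaggcttctttcta

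Part of the loci were overlapped by unnamed loci of the other tissues. An overlap was at least 1 base with an unnamed locus there, on any strand. A counterpart that has a name in the other tissue was therefore not counted. The same shares for other adipose loci are not given here, so these shares have no yardstick. Unnamed loci of the hypothalamus overlapped 485 of the 1488 (32.6%, interval 30.3 to 35) and those of the liver 442 (29.7%, interval 27.4 to 32.1). Both did so for 300, and neither for 861. Among the 183 loci at 1 FPKM or more the shares were 74.3% and 80.9%, against 26.7% and 22.5% of the lower loci. The tables were normalized separately, so levels are only set side by side. The Rps6-ps4 locus had a median of 88.2 in the fat, with 73.5 for its hypothalamic and 91.4 for its hepatic counterpart. The Tpt1-ps3 locus had 130, 55.6 and 128 in the same order. The Scp2-ps2 locus XLOC_029224, at a copy of the sterol carrier gene Scp2, had 57.3, 13.0 and 215. The locus opposite to Gm10123 had 96.8, and its counterparts, which carry no strand, 279 and 195. None of the 11 loci above 0 only in adipose03 and adipose41, with or without adipose10, had an unnamed counterpart in liver. XLOC_004049 alone of them had one in hypothalamus, at a median of 0.392.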

How the data were processed

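Poly-A RNA of 18 samples from 3 tissues was sequenced, as the labels' protocols state. The submitters' processing notes name HISAT 0.1.6, StringTie 1.0.4 and the build mm10. The annotation, the merging tool and the strandedness are not given in the sources used here. The deposited transcript tables give each model's position, strand and gene name with 6 FPKM columns per tissue, normalized by the authors per kilobase and per library, so depth per sample is unknown. Positions count from 1, since 11170 model spans equalled a RefSeq gene and 11 did so after adding 1 to the start.

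FPKM was summed over the models of a locus, and 13 cells that are not numbers (1 of them in a member) were left missing. Values of source genes and marker genes were summed over the models of that gene name instead. Places came from GENCODE M21 exons on the same build, promoter windows from RefSeq (GRCm38.p6) and transcript ends from GENCODE sequences. Closest coding transcripts were found with blastn 2.17.0 on the pseudogene's strand, leaving out genes named Gm, Rik or -ps as candidates. Tables were made with pandas and intervals with SciPy. The place classes and the log2 SD were checked on simulated loci. Intervals cover counting of loci only.

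Columns could not be placed in a treatment group, so no groups were tested and no p-value is given. Dixon's criterion was used only to find columns far from the others. The named loci were the 10 highest, the 10 most and 5 least variable at a median of 1 FPKM, the 5 with most models (ties by median) and the 5 widest; miRNA hairpins gave none. The leading loci of each kind, the paired strands, the combinations of columns and the source genes were added after values were seen. The members and lists were chosen with earlier results of these data known. The planned readings of member starts and ends from a genome sequence were replaced by RefSeq and GENCODE sequences at those positions. Some items are not reported here.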

Additional observations from a re-analysis of the deposited data

Results flagged for a closer look

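Among the 33 loci named by the stated rule, 4 had a column far from the other 5, by the gap to the nearest value over the whole range against Dixon's 95% limit for 6 values. Chance alone flags about 1 in 20 groups, a rate that does not apply to the loci chosen for their spread, which include XLOC_029531 and XLOC_000201. Of the 183 loci at a median of 1 FPKM or more 13 (7.10%) were past that limit. XLOC_029531, over the mitochondrial chromosome on the - strand, was listed at 0 in adipose41, against 2002 to 2970 in the others. XLOC_000201, at the small nuclear RNA gene Gm25939, was at 441 in adipose41, against 0.154 to 74.5. XLOC_002853, at Cfap54, was at 2.31 in adipose25, against 0 to 0.595. XLOC_017280, at Naaladl2, was at 0.768 in adipose10, against 0 to 0.106.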

How the results depend on the processing

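Over 60 alternatives, 29 left the value within its interval or within the spread it was set against, and 31 did not. The mean over columns of the median level, 0.213 FPKM, became 1.07 when every column was scaled to the same, larger total. Before scaling the columns summed to 169666 to 217234 FPKM, so every value rose, while the threshold and the pseudocount stayed. Values under this scaling therefore reflect the change of unit as well as the equal totals. The share of loci at 1 FPKM or more, 12.3%, became 47.1% under that scaling, 56.8% at a threshold of 0.1 FPKM and 7.06% when every column had to pass. The log2 SD, 0.53, became 0.42 with a pseudocount of 1, 1.02 without the threshold, 0.80 after scaling and 0.49 with 1 locus per pair of strands, and leaving out each column in turn gave 0.45 (without adipose03) to 0.53. The share of summed FPKM, 2.90%, became 1.81% without mitochondrial and unplaced loci and 3.25% from the deposited gene table. The share downstream of a gene was 0.806% within 1 kb and 6.59% within 10 kb, which left 22.4% and 17.5% in no place. When an overlap had to cover at least 50% of a locus, 15.6% were at a same-strand exon, 7.26% at an opposite-strand one, 29.5% and 5.85% in introns on the same and opposite strand, 5.44% downstream, 9.68% divergent and 26.7% in no place. Against the spans of named models of the adipose table, which have no exons, 6.25% overlapped on the same strand, 11.7% were divergent and 62.4% were in no place. The overlap with hypothalamus fell to 20.6% on the same strand only and 25.3% at 50% coverage, and that with liver to 16.9% and 21.8%. CpG-rich starts came to 27.1% at 55% GC and a ratio of 0.75, and ends with AATAAA or ATTAAA to 62.7%. Where these values moved, the cause was not tested beyond the changed definition itself. The planned readings of starts and ends from a genome were not run. No paired analysis was possible because the columns carry no replicate number of the labels and no groups were tested. The gene table, the paired strands, the left-out columns and the starts and ends were alternatives chosen after seeing the data.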
